A study of Mus musculus with 11 samples.

Results

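P2rx3 encodes an ATP-gated cation channel that is best known from pain-sensing neurons, and it was examined here in mouse T cells together with 5 other genes of purinergic signalling. The set of 6 genes held the channels P2rx3, P2rx4 and P2rx7, the surface enzymes Entpd1 (CD39) and Nt5e (CD73), and the adenosine receptor Adora2a. P2rx3 was chosen by its higher log2 signal in the comparisons with wild-type CD4+CD8- cells, and the others were chosen as genes of the same pathway. Each was represented by the probe set that the platform annotation assigns to its symbol alone. Probe sets of this kind were present for 5 of the 6 genes, out of 16673 probe sets and 14835 genes so annotated. Adora2a was not analysed here.

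Extracellular ATP opens P2X channels, which let calcium and sodium into the cell, and it also acts with other nucleotides on the P2Y family of G protein-coupled receptors. CD39 cuts ATP and ADP down to AMP, and CD73 turns AMP into adenosine. Adenosine then acts on receptors of its own, some of which raise cyclic AMP and dampen T cell activation. In T cells, ATP released after antigen receptor engagement feeds back through P2X4 and P2X7, and strong P2X7 stimulation can kill the cell.

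The arrays came from T helper 1 type effector cells. Naive CD44lo spleen T cells were cultured with irradiated, T cell-depleted C57BL/6 splenocytes, anti-CD3, anti-CD28, IL-2, IL-12 and a blocking antibody to IL-4, and were sorted on day 4. Wild-type cells gave a CD4+CD8- group (n = 3) and a CD4-CD8+ group (n = 2). Thpok f/f CD2cre mice, in which a Cre driven by CD2 deletes the gene for the CD4-lineage factor Thpok (Zbtb7b) in T cells, gave a CD4+CD8- group (n = 3) and a CD4+CD8+ group (n = 3). These are called Thpok-deficient below. Replicates were drawn from 2 cell preparations without a label that links each array to its preparation, so the p-values measure the spread between these samples, which may partly be technical. In bulk samples such as these, fewer cells that express a gene and less RNA per cell cannot be told apart.

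Values are log2 array signals, so a difference of 1 is a doubling, and levels of different probe sets cannot be set against each other. Zbtb7b itself had signals of 8.03 to 8.70 on the wild-type CD4+CD8- arrays and 6.30 to 7.23 on the other 8, and Cd4 and Cd8a followed the sort labels. The 4 measured T cell markers averaged 10.00 to 11.03 on every array. Wild-type CD4+CD8- replicate 3 and Thpok-deficient CD4+CD8+ replicate 3 had a compressed range of values, with an SD over all probe sets of 1.54 and 1.70, against 1.94 to 2.06 on the other 9 arrays. On these 2 narrow arrays the median of 808 olfactory-type receptor genes, which T cells are not known to use, was 4.79 and 4.21, against 3.26 to 3.69 elsewhere. For the larger differences named below, a value without them is given where it moved by over 1.5 times.

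P2rx3 had 1 clearly low group. Its log2 signals were 6.15, 7.42 and 5.52 in the 3 wild-type CD4+CD8- samples. They were 8.87 and 10.61 in the 2 wild-type CD4-CD8+ samples. Thpok-deficient CD4+CD8- cells gave 9.95, 10.48 and 9.85, and Thpok-deficient CD4+CD8+ cells gave 9.75, 10.42 and 9.67. The 8 samples of the last 3 groups all lay above the highest wild-type CD4+CD8- sample, and these 3 groups overlapped each other.

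**Figure D1:**
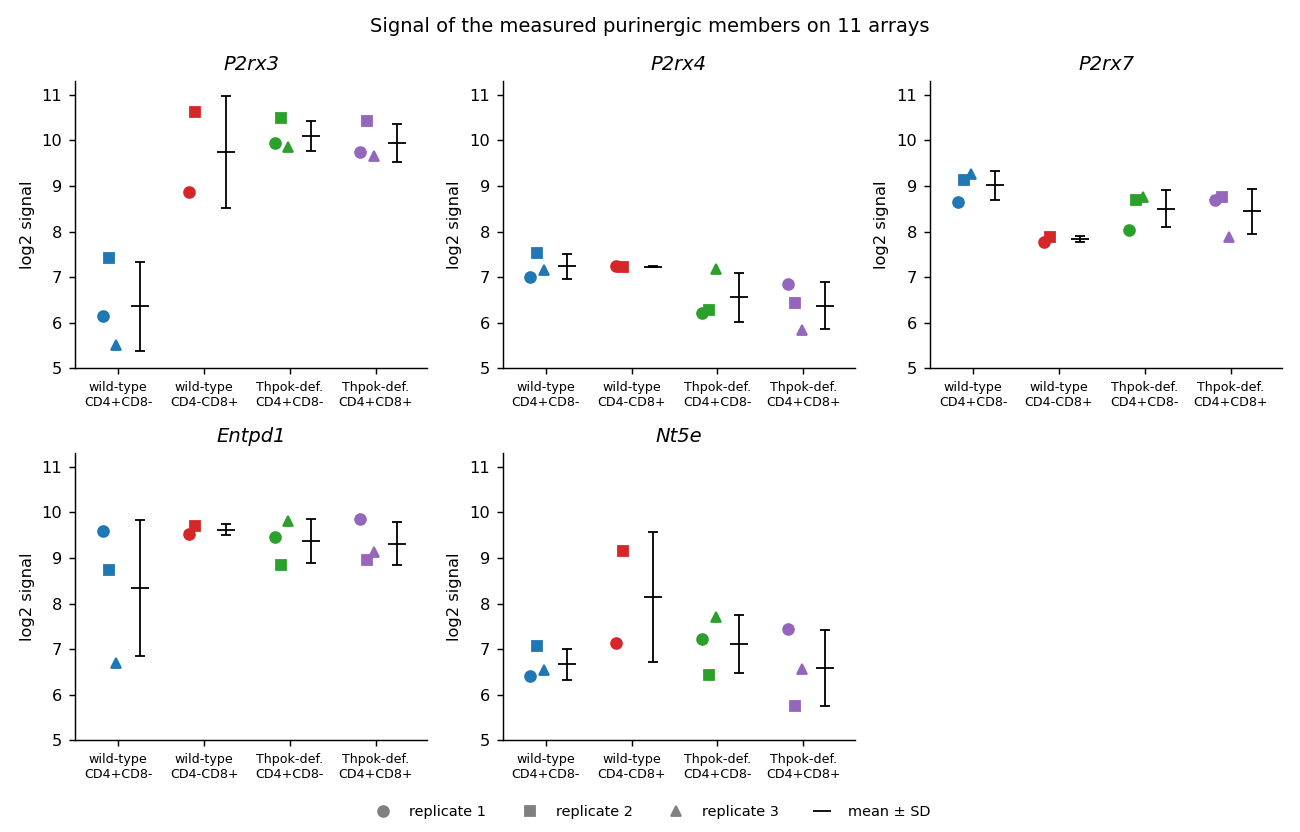
Log2 signal (vertical axis) of P2rx3, P2rx4, P2rx7, Entpd1 and Nt5e on the 11 arrays, by group (horizontal axis); symbols mark the replicate number and black bars the group mean ± SD. P2rx3 lies between 5.52 and 7.42 in wild-type CD4+CD8- cells and between 8.87 and 10.61 in the other 3 groups. Some pairs of groups also do not overlap for P2rx4, P2rx7 and Nt5e, while all pairs overlap for Entpd1.

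By group, the order of P2rx3 means was 6.36 ± 0.97 (SD, n = 3) for wild-type CD4+CD8-, 9.74 ± 1.23 (SD, n = 2) for wild-type CD4-CD8+, 9.94 ± 0.41 (SD, n = 3) for Thpok-deficient CD4+CD8+ and 10.10 ± 0.34 (SD, n = 3) for Thpok-deficient CD4+CD8- cells. The gap between the first mean and the next was 3.38 ± 0.58 (SE), or 10.4-fold. Over wild-type CD4+CD8- cells the Thpok-deficient CD4+CD8- group was 3.73 ± 0.52 (SE) higher, or 13.3-fold, and the Thpok-deficient CD4+CD8+ group 3.58 ± 0.52 (SE) higher, or 11.97-fold. Since P2rx3 was picked for these differences, they are given as a description with no test, and all 3 share the same wild-type CD4+CD8- samples. Ranked by signed difference among the 16673 probe sets, P2rx3 stood at position 10 in the wild-type comparison, at 1 for Thpok-deficient CD4+CD8- cells and at 4 for Thpok-deficient CD4+CD8+ cells. Without the 2 narrow arrays the 3 differences were 2.96, 3.31 and 3.30. The difference between the wild-type groups was 2.51 when replicate 2 of the CD4-CD8+ samples was left out and 4.25 when their replicate 1 was.

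The remaining comparisons of P2rx3 were tested with limma, with Benjamini-Hochberg adjustment over all 16673 probe sets and a threshold of 0.05. They use the samples whose high values led to the choice of P2rx3, so their p-values are not independent of that choice. Between the 2 Thpok-deficient populations the difference was -0.15 (CD4+CD8+ minus CD4+CD8-, 95% interval -1.29 to 0.98, adjusted p = 0.889 by limma). Thpok-deficient CD4+CD8- cells differed from wild-type CD4-CD8+ cells by 0.35 (95% interval -0.92 to 1.62, adjusted p = 1 by limma). Thpok-deficient CD4+CD8+ cells differed from the same wild-type cells by 0.20 (95% interval -1.07 to 1.47, adjusted p = 0.897 by limma). Without the narrow arrays the 3 values were -0.01, 0.35 and 0.34. None of the 3 passed, and the intervals leave room for a difference of more than 1 log2 unit in at least 1 direction each.

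The other 4 measured genes did not pass the test in any of the 6 comparisons. The share of all probe sets that passed was 0.534% for wild-type CD4-CD8+ against CD4+CD8- cells, 0.0840% for Thpok-deficient CD4+CD8- cells and 0.204% for Thpok-deficient CD4+CD8+ cells against the same wild-type cells. With the replicate number as a block, the last comparison gave 86 probe sets in place of 34. Between the Thpok-deficient populations 0% passed (limma), with 338 probe sets at an unadjusted p under 0.05. Against wild-type CD4-CD8+ cells the shares were 0.0180% for Thpok-deficient CD4+CD8- cells and 0.00600% for Thpok-deficient CD4+CD8+ cells. With so few calls anywhere, 0 of 4 does not separate these genes from the rest of the array.

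P2rx4 encodes the P2X channel that helps carry calcium into activated T cells. Its log2 signals were 7.01, 7.54 and 7.16 in wild-type CD4+CD8- cells and 7.24 and 7.23 in wild-type CD4-CD8+ cells. Thpok-deficient CD4+CD8- cells gave 6.21, 6.28 and 7.18, and Thpok-deficient CD4+CD8+ cells gave 6.85, 6.44 and 5.84. Between Thpok-deficient CD4+CD8+ and wild-type CD4+CD8- cells, 9.87% of all probe sets had no overlap. Between the former and wild-type CD4-CD8+ cells, 3890 of 16673 had none. For P2rx4 the CD4+CD8+ samples all lay below both wild-type groups. Their difference was -0.86 ± 0.31 (SE) from wild-type CD4+CD8- cells (adjusted p = 0.352 by limma) and -0.86 ± 0.35 (SE) from wild-type CD4-CD8+ cells (adjusted p = 0.828 by limma). The 2 wild-type groups differed by -0.00 (95% interval -0.77 to 0.77).

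P2rx7 encodes the P2X channel that needs the highest ATP and drives inflammasome activation, shedding of surface proteins and cell death. Its log2 signals were 8.65, 9.12 and 9.26 in wild-type CD4+CD8- cells and 7.78 and 7.87 in wild-type CD4-CD8+ cells. They were 8.04, 8.70 and 8.76 in Thpok-deficient CD4+CD8- cells and 8.69, 8.76 and 7.88 in Thpok-deficient CD4+CD8+ cells. The 2 wild-type CD4-CD8+ samples were the lowest of the 11 and the Thpok-deficient samples lay above them and reached into the wild-type CD4+CD8- range. Lack of overlap was common among the 16673 probe sets, with 23.0% between the wild-type groups. Against wild-type CD4-CD8+ cells it held for 3688 in Thpok-deficient CD4+CD8- cells and 3890 in CD4+CD8+ cells. The wild-type CD4-CD8+ minus CD4+CD8- difference was -1.18 ± 0.32 (SE, 2.27-fold lower, adjusted p = 0.150 by limma). From wild-type CD4+CD8- cells, the Thpok-deficient groups differed by -0.51 ± 0.29 (SE, adjusted p = 0.557) and -0.56 ± 0.29 (SE, adjusted p = 0.648 by limma). Without the narrow arrays these were -0.38 and -0.15, and without Thpok-deficient CD4+CD8- replicate 1 the former was -0.28. P2rx7 was thus lower on average in each comparison with wild-type CD4+CD8- cells, with only the wild-type CD4-CD8+ samples apart from that group. No contrast with P2rx3 is drawn, because P2rx3 was chosen for its rise in these comparisons.

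Entpd1, the gene for CD39, had log2 signals of 9.59, 8.74 and 6.70 in wild-type CD4+CD8- cells. They were 9.53 and 9.70 in wild-type CD4-CD8+ cells, 9.47, 8.85 and 9.81 in Thpok-deficient CD4+CD8- cells, and 9.85, 8.96 and 9.13 in Thpok-deficient CD4+CD8+ cells. A single sample stood apart, replicate 3 of the wild-type CD4+CD8- group, which is 1 of the narrow arrays. The 3 differences from that group were 1.28 ± 0.66 (SE, adjusted p = 0.527), 1.04 ± 0.59 (adjusted p = 0.557) and 0.97 ± 0.59 (adjusted p = 0.802 by limma). Without the narrow arrays they were 0.45, 0.21 and 0.24.

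Nt5e, the gene for CD73, had log2 signals of 6.41, 7.06 and 6.54 in wild-type CD4+CD8- cells and 7.14 and 9.16 in wild-type CD4-CD8+ cells. Thpok-deficient CD4+CD8- cells gave 7.22, 6.44 and 7.71, and Thpok-deficient CD4+CD8+ cells gave 7.44, 5.76 and 6.56. The 2 wild-type CD4-CD8+ samples lay far apart from each other. Both were above the wild-type CD4+CD8- samples, a lack of overlap that 23.0% of all probe sets had between these groups. Their mean difference was 1.48 ± 0.61 (SE, adjusted p = 0.375 by limma), and it was 0.47 without replicate 2 of that group and 2.49 without replicate 1. The Thpok-deficient groups overlapped wild-type CD4+CD8- cells and differed from them by 0.45 ± 0.55 (SE, adjusted p = 0.627) and -0.08 ± 0.55 (SE, adjusted p = 1.00 by limma).

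**Figure D2:**
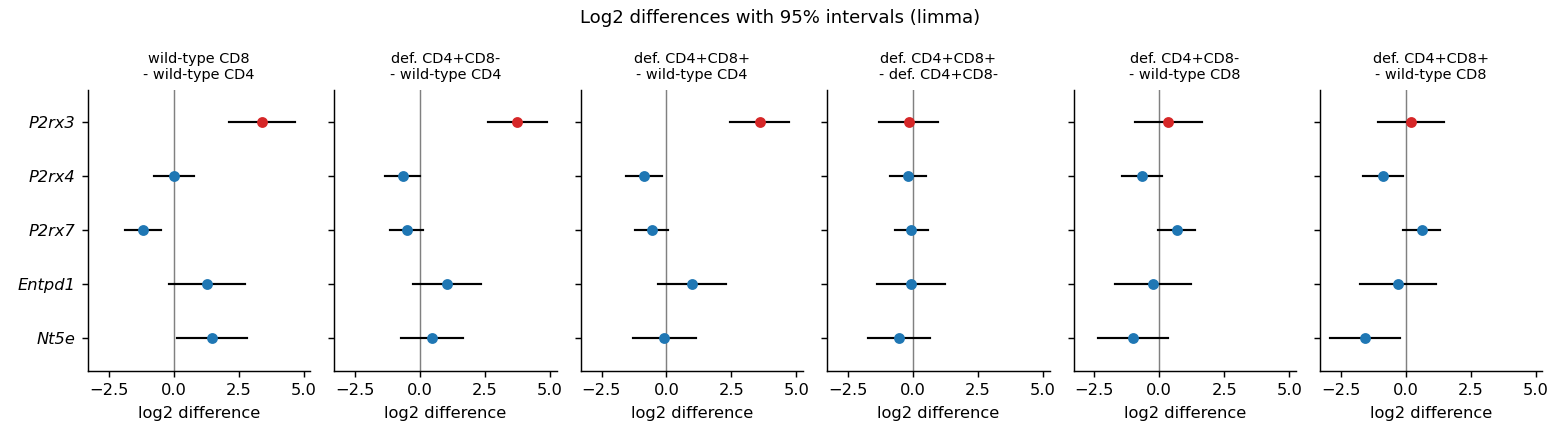
Log2 differences (horizontal axis, dots) with 95% intervals (bars) of the 5 measured genes (vertical axis) in the 6 comparisons between groups; "def." stands for Thpok-deficient. P2rx3 (red) has differences of 3.38 to 3.73 from wild-type CD4+CD8- cells and intervals that include 0 in the other 3 comparisons.

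The wider pathway was covered by 89 genes in 11 lists, from receptors to cyclic AMP and calcium signalling, of which 77 were measured. Leaving out P2rx3, 2 of 76 passed in wild-type CD4-CD8+ against CD4+CD8- cells, 0 of 76 in Thpok-deficient CD4+CD8- cells and 1 of 76 in Thpok-deficient CD4+CD8+ cells, all of them lower than in wild-type CD4+CD8- cells. By limma, 10, 9 and 12 of the 76 (13.2%, 11.8% and 15.8%) had an unadjusted p under 0.05 in these 3 comparisons, against 11.5%, 10.4% and 9.34% of all probe sets. In the 3 comparisons without wild-type CD4+CD8- cells, 0 of 76 passed and 3 (3.95%) had an unadjusted p under 0.05 in each (limma), against 2.03%, 2.39% and 2.87% of all probe sets. The groups did not overlap for 21.1%, 18.4% and 15.8% of the 76 genes in the 3 comparisons with wild-type CD4+CD8- cells, against 23.0%, 19.9% and 9.87% of all probe sets. The median differences of the 76 were -0.11, -0.09 and -0.01, against -0.14, -0.15 and 0.00 over all probe sets. The shares called by limma were 2.63%, 0% and 1.32% of the 76, against 0.534%, 0.0840% and 0.204% of all probe sets. The calls among the 76 rest on Pde2a and Gja1 alone, and no test of a difference between the lists and the whole array was made.

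**Figure D3:**
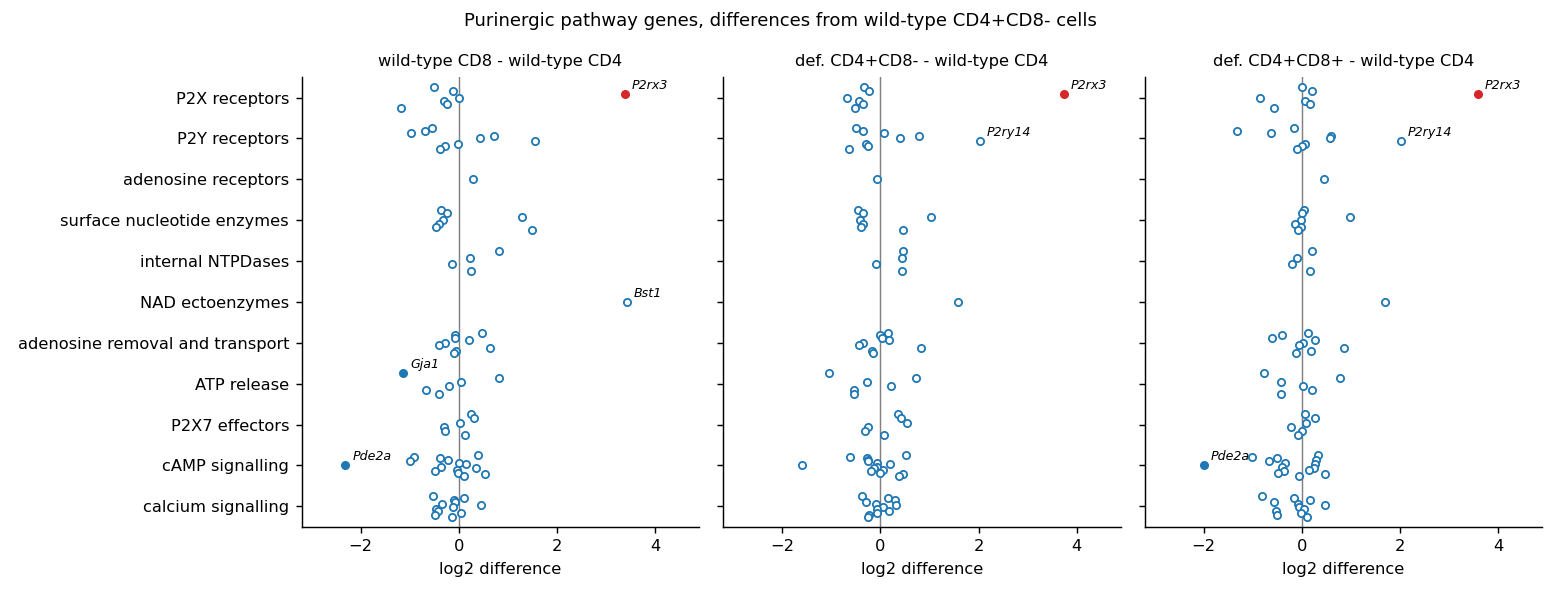
Log2 difference (horizontal axis) from wild-type CD4+CD8- cells for each of the 77 measured genes (dots), by pathway list (vertical axis), in 3 comparisons; filled blue dots passed the limma test, open dots did not, and red marks P2rx3, which was not tested here. P2rx3, which was chosen for its rise in these comparisons, lies apart from the other P2X genes, whose differences run from -1.18 to 0.21.

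The 6 P2X genes other than P2rx3 had differences between -1.18 and 0.21 in these 3 comparisons, and 0 of them passed. P2rx1, P2rx5 and P2rx6, channel subunits of platelets, muscle and other tissues, varied by 0.24 to 0.46 over the 9 arrays with a full range. P2rx1 had signals between 4.11 and 4.35 on those arrays and 5.23 and 5.21 on the narrow arrays. The same pattern, with both narrow arrays highest, held for 21 of the 77 pathway genes and 9 of the 17 receptors, against 37.4% of all probe sets and 63.0% of the olfactory-type receptor genes. It held for P2rx1, P2rx2, P2rx5 and P2rx6 and for the ectoenzymes Entpd2, Entpd3, Entpd8, Enpp3 and Alpl. Over the 9 other arrays these 21 genes varied by between 0.24 and 1.67.

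Among the P2Y genes, P2ry14, the receptor for UDP-glucose, had log2 signals of 7.32, 7.34 and 5.69 in wild-type CD4+CD8- cells and 7.12 and 9.55 in wild-type CD4-CD8+ cells. The Thpok-deficient CD4+CD8- group gave 9.31, 8.36 and 8.74, and Thpok-deficient CD4+CD8+ cells 8.50, 8.41 and 9.48. All 6 Thpok-deficient samples lay above the wild-type CD4+CD8- samples, and the 2 wild-type CD4-CD8+ samples lay on either side of those 6. Lack of overlap with wild-type CD4+CD8- cells held for 19.9% (Thpok-deficient CD4+CD8-) and 9.87% (Thpok-deficient CD4+CD8+) of all probe sets. The Thpok-deficient groups differed from wild-type CD4+CD8- cells by 2.02 ± 0.62 (SE, adjusted p = 0.240) and 2.02 ± 0.62 (SE, adjusted p = 0.253 by limma), and the wild-type CD4-CD8+ group by 1.55 ± 0.69 (SE, adjusted p = 0.425 by limma). Without the narrow arrays the 3 differences were 1.47, 1.13 and 1.01, and that of the wild-type CD4-CD8+ group was 0.34 without its replicate 2 and 2.77 without replicate 1. P2ry10, a receptor for lysophosphatidylserine despite its name, had a difference of -1.33 ± 0.59 in Thpok-deficient CD4+CD8+ cells (adjusted p = 0.523 by limma, and -0.71 without replicate 3 of that group), and its relative P2ry10b -0.97 ± 0.33 in wild-type CD4-CD8+ cells (adjusted p = 0.261 by limma, and -0.63 without wild-type CD4+CD8- replicate 2). Adora3, the 1 adenosine receptor measured of 4 listed, ranged from 4.86 to 6.35 with every pair of groups overlapping.

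The surface enzymes that degrade nucleotides had 7 measured genes, of which 2, Entpd1 and Nt5e, were positive in the wild-type comparison and 5 negative, with 0 passing. The largest of those 5 negative values was -0.47 for Entpd8, which was -0.13 without the narrow arrays. The 4 internal relatives of CD39, which act in the secretory pathway and lysosome, also had 0 passing, with differences between -0.20 and 0.82 from wild-type CD4+CD8- cells. Bst1 (CD157), a surface enzyme that hydrolyses NAD, was the 1 gene measured of 4 NAD ectoenzymes.

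Bst1 had log2 signals of 7.20, 5.33 and 5.44 in wild-type CD4+CD8- cells and 9.06 and 9.76 in wild-type CD4-CD8+ cells. The Thpok-deficient CD4+CD8- group had 7.33, 6.44 and 8.95, and Thpok-deficient CD4+CD8+ cells 8.91, 6.84 and 7.33. The wild-type CD4-CD8+ samples were above all 9 others, and the Thpok-deficient samples spread over the gap between the wild-type groups. Between the wild-type groups 23.0% of all probe sets had no overlap. Against wild-type CD4-CD8+ cells, 3688 of 16673 had none in Thpok-deficient CD4+CD8- cells and 3890 in CD4+CD8+ cells. The difference between the wild-type groups was 3.42 ± 0.80 (SE, 10.7-fold), the largest of the 77 genes there, and did not pass (adjusted p = 0.0960 by limma). The Thpok-deficient groups differed from wild-type CD4+CD8- cells by 1.59 ± 0.72 (adjusted p = 0.480) and 1.70 ± 0.72 (adjusted p = 0.466 by limma), or 0.90 without replicate 3 of the former and 1.10 without replicate 1 of the latter.

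Entpd1, Nt5e and Bst1 shared an order of replicates, noticed in the data. In Thpok-deficient CD4+CD8- cells replicate 3 was highest and 2 lowest for each of the 3 genes. In Thpok-deficient CD4+CD8+ cells replicate 1 was highest and 2 lowest, and in wild-type CD4-CD8+ cells replicate 2 was above 1. The order was defined on these 3 genes, so they hold it by construction. Beyond these 3, only Lrrc8d among the 77 measured pathway genes held it, and 1.89% of all probe sets did. Cd79b and Cd68, 1 marker each from the lists for B cells and myeloid cells, differed among the samples too. The wild-type arrays had Cd79b signals of 4.53 to 5.81 (CD4+CD8-) and 7.46 to 7.92 (CD4-CD8+), and the Thpok-deficient arrays 4.96 to 6.38 (CD4+CD8-) and 5.64 to 6.93 (CD4+CD8+). Cd68 was 7.05 to 7.37, 8.38 to 8.47, 7.70 to 8.53 and 7.49 to 8.71 in the same groups, in that order. Averaged over the measured genes of each list, the wild-type groups overlapped. The mean over 4 of 5 B cell markers was 4.47 to 5.45, 4.96 to 5.09, 4.44 to 4.80 and 4.82 to 5.45. Over 5 of 6 myeloid markers it was 4.98 to 5.22, 5.08 to 5.18, 4.85 to 5.15 and 4.91 to 5.45. For both lists the wild-type CD4-CD8+ range lay within the wild-type CD4+CD8- range, which includes a narrow array. The Thpok-deficient CD4+CD8- arrays, none of them narrow, all lay below the wild-type CD4-CD8+ arrays for the B cell list. For the myeloid list these 2 groups overlapped. Ikzf2, the 1 regulatory T cell marker measured of 3, was 6.09 to 6.54, 7.25 to 8.49, 6.69 to 7.03 and 5.91 to 7.15 in those groups. The part of such cells in the values of Entpd1, Nt5e, Bst1 and P2rx7 was not tested.

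Adenosine leaves the extracellular space through transporters and adenosine deaminase. Slc29a1, the equilibrative transporter ENT1, had log2 signals of 7.44, 7.26 and 7.09 in wild-type CD4+CD8- cells and 8.20 and 7.60 in wild-type CD4-CD8+ cells. It had 8.32, 8.06 and 7.90 in Thpok-deficient CD4+CD8- cells and 7.91, 8.23 and 8.22 in Thpok-deficient CD4+CD8+ cells. The 3 wild-type CD4+CD8- samples were the lowest of the 11. Lack of overlap with them held for 23.0%, 19.9% and 9.87% of all probe sets in the other 3 groups, in that order. The differences of 0.64 ± 0.24 (adjusted p = 0.307), 0.83 ± 0.21 (adjusted p = 0.173) and 0.86 ± 0.21 (adjusted p = 0.149 by limma) did not pass, and the first was 0.34 without replicate 1 of the wild-type CD4-CD8+ group. Ada, the deaminase, and Dpp4, its anchor on T cells, did not pass either, with differences from wild-type CD4+CD8- cells of 0.46 at most for Ada (0.24 without the narrow arrays) and -0.61 for Dpp4 in Thpok-deficient CD4+CD8+ cells (-0.32 without their replicate 3).

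The genes that passed were Pde2a and Gja1. Pde2a encodes a phosphodiesterase that breaks down cyclic AMP when stimulated by cyclic GMP. Its log2 signals were 10.26, 10.55 and 9.98 in wild-type CD4+CD8- cells and 7.95 and 7.95 in wild-type CD4-CD8+ cells. Thpok-deficient CD4+CD8- cells gave 8.31, 8.97 and 8.73, and Thpok-deficient CD4+CD8+ cells 8.22, 8.66 and 7.92. The wild-type CD4+CD8- samples were above the 8 others, whereas they were the lowest for P2rx3, which was chosen for that. Of all probe sets, 23.0%, 19.9% and 9.87% had no overlap between wild-type CD4+CD8- cells and the other 3 groups, in that order. All Thpok-deficient CD4+CD8- samples also lay above both wild-type CD4-CD8+ samples. Between these groups 3688 of 16673 probe sets had no overlap, and the Pde2a difference of 0.72 did not pass.

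Pde2a differed by -2.32 ± 0.28 (SE, 4.98-fold lower) in wild-type CD4-CD8+ cells (adjusted p = 0.00645 by limma) and by -1.998 ± 0.25 (SE, 3.995-fold lower) in Thpok-deficient CD4+CD8+ cells (adjusted p = 0.0121 by limma). In Thpok-deficient CD4+CD8- cells its difference of -1.60 ± 0.25 narrowly missed the threshold (adjusted p = 0.0522 by limma), and it was called there without the narrow arrays (-1.74, adjusted p = 0.0367). The wild-type call was lost without wild-type CD4-CD8+ replicate 2 (adjusted p = 0.0607), where the lone remaining sample is assumed to vary like the other groups. The call in Thpok-deficient CD4+CD8+ cells was lost without their replicate 3 (-1.83, adjusted p = 0.05003, just above the threshold) and after centring each array on its median (adjusted p = 0.0592). Pde2a did not pass between the 2 Thpok-deficient groups (-0.40 ± 0.25, adjusted p = 0.683 by limma). The other 14 cyclic AMP genes did not pass in any comparison, and the adenylyl cyclase Adcy6 had the next largest difference, -1.01 ± 0.34 in Thpok-deficient CD4+CD8+ cells (adjusted p = 0.303 by limma).

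Gja1 encodes connexin 43, whose hemichannels release ATP. Its log2 signals were 5.16, 5.35 and 5.51 in wild-type CD4+CD8- cells, 4.24 and 4.17 in wild-type CD4-CD8+ cells, 4.16, 4.35 and 4.40 in Thpok-deficient CD4+CD8- cells, and 4.44, 4.50 and 4.78 in Thpok-deficient CD4+CD8+ cells. The wild-type CD4+CD8- samples were again the highest of the 11, where 23.0%, 19.9% and 9.87% of all probe sets had no overlap with the other 3 groups. These signals are dim, with a mean of 4.64 over all arrays, and the filter at a mean signal of 5 removed the gene. The highest value of the wild-type CD4+CD8- group (5.51) and of the Thpok-deficient CD4+CD8+ group (4.78) was on a narrow array. The difference passed in wild-type CD4-CD8+ cells (-1.14 ± 0.19, 2.20-fold lower, adjusted p = 0.0310 by limma) and not in Thpok-deficient CD4+CD8- cells (-1.04 ± 0.17, adjusted p = 0.0562) or CD4+CD8+ cells (-0.77 ± 0.17, adjusted p = 0.119 by limma). Whether the 3 differences differ from each other is given by the remaining comparisons, none of which passed for Gja1. The call was lost without wild-type CD4+CD8- replicate 2, either wild-type CD4-CD8+ sample, any 1 of the Thpok-deficient CD4+CD8- samples, or Thpok-deficient CD4+CD8+ replicate 1 or 2 (adjusted p from 0.0502 to 0.202). Without both narrow arrays Gja1 was also called in Thpok-deficient CD4+CD8- cells (-0.95, adjusted p = 0.0326). Of the other ATP release genes, Lrrc8c, a subunit of volume-regulated anion channels, had the largest positive differences (0.81, 0.72 and 0.77, adjusted p from 0.392 to 0.443 by limma), which were 0.44, 0.35 and 0.35 without the narrow arrays.

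**Figure D4:**
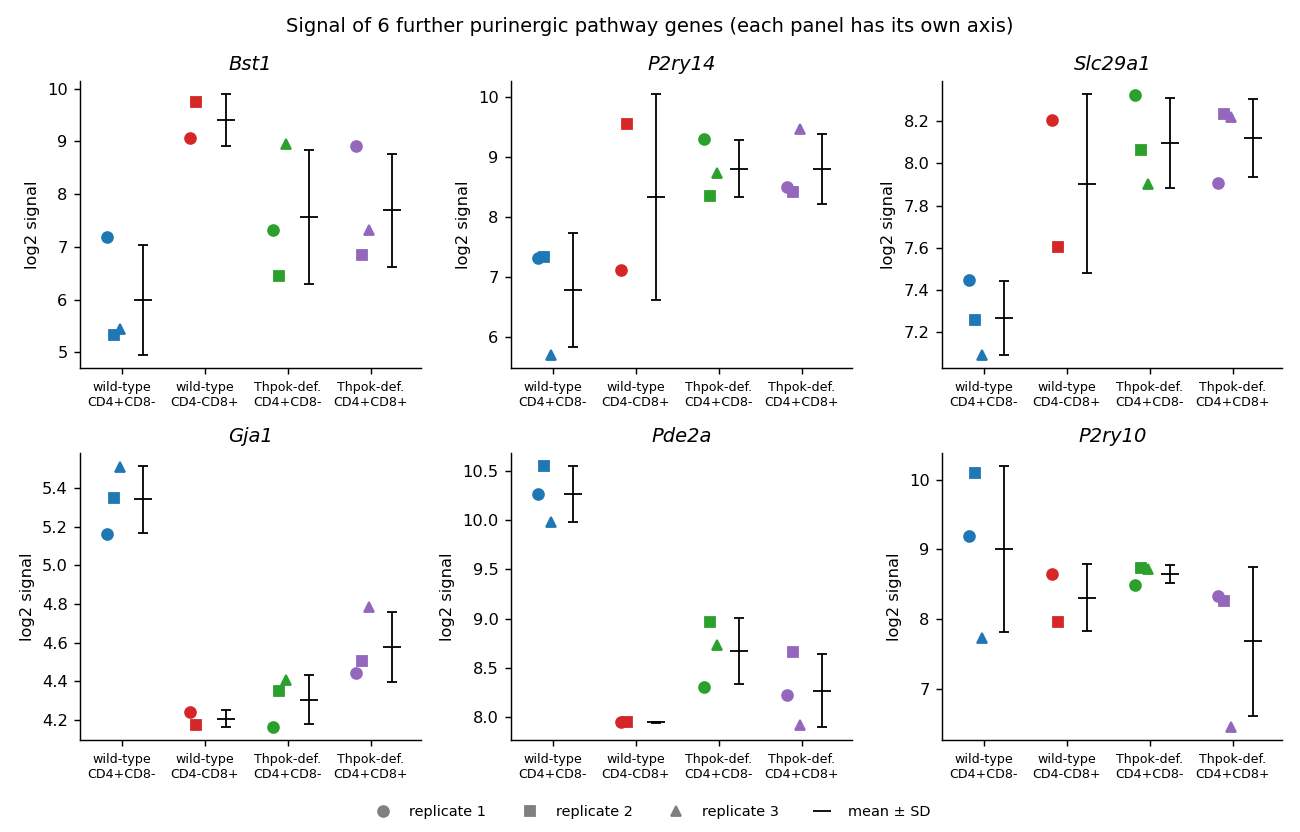
Log2 signal (vertical axes, each panel with its own range) of Bst1, P2ry14, Slc29a1, Gja1, Pde2a and P2ry10 on the 11 arrays by group (horizontal axis), with symbols for the replicate number and bars for mean ± SD. Gja1 and Pde2a are highest and Slc29a1 lowest in wild-type CD4+CD8- cells, and Bst1 is highest in wild-type CD4-CD8+ cells.

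The P2X7 effectors and the calcium genes showed no calls on all 11 arrays. Of the 6 measured P2X7 effectors 0 passed in any comparison, and their differences from wild-type CD4+CD8- cells lay between -0.30 and 0.54, the highest for the inflammasome protease Casp1 in Thpok-deficient CD4+CD8- cells (adjusted p = 0.478 by limma, and 0.36 without the narrow arrays). Of the 12 calcium genes 0 passed either, with Itpr2, an IP3-gated calcium release channel, lowest at -0.82 ± 0.31 in Thpok-deficient CD4+CD8+ cells (adjusted p = 0.377 by limma, and -0.53 without their replicate 3). Without the narrow arrays Stim1, the endoplasmic reticulum calcium sensor, was called in wild-type CD4-CD8+ cells (-0.94, adjusted p = 0.0138 by limma), against -0.49 (adjusted p = 0.648) on all 11 arrays.

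The genes whose signal followed P2rx3 most closely over the 11 arrays were ranked by Pearson r among 14834 genes, as a description. The arrays share their groups and preparations, so r mostly records the step between wild-type CD4+CD8- cells and the rest. The 5 highest were Cnot9, a subunit of the CCR4-NOT deadenylase (r = 0.964), Slc43a3, a purine nucleobase transporter (0.961), Pigu, a part of the GPI transamidase (0.953), Sfxn1, a mitochondrial serine transporter (0.951), and Cenpn, a centromere protein (0.949). The 5 lowest were Frmd6 (-0.958), Tchp (-0.941), St8sia6 (-0.939), Dok4 (-0.917) and Lrrc19 (-0.913). In all, 85 genes had r above 0.9 and 7 had r below -0.9, and the median was -0.23. Zbtb32, a zinc finger repressor, had an r of 0.946.

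**Figure D5:**
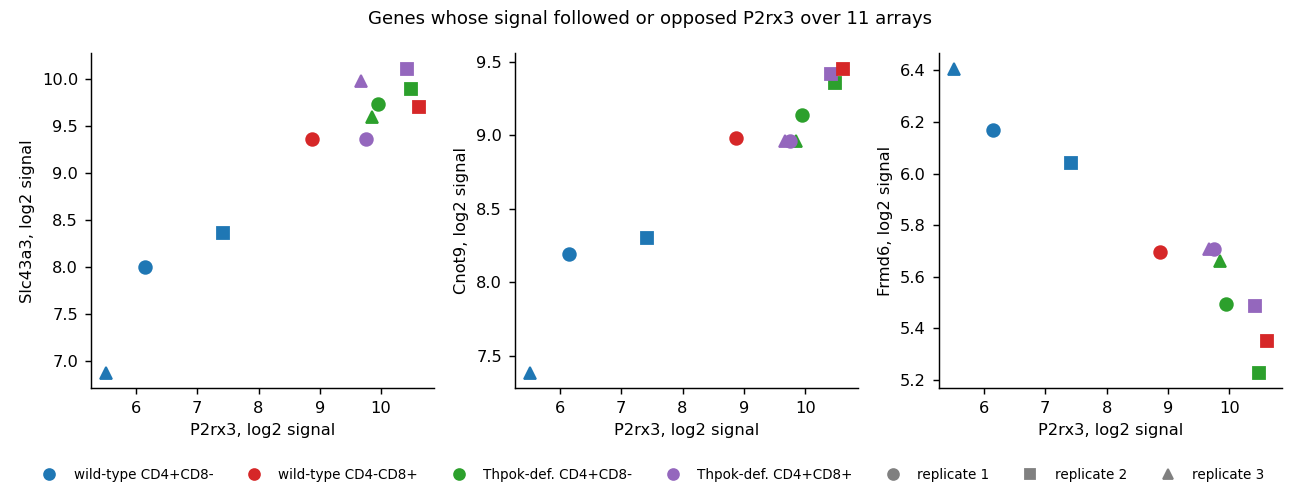
Log2 signal of Slc43a3, Cnot9 and Frmd6 (vertical axes) against that of P2rx3 (horizontal axes) on the 11 arrays, coloured by group, with symbols for the replicate number. The 3 wild-type CD4+CD8- arrays stand apart from the 8 others in each panel, and r is 0.961, 0.964 and -0.958.

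Slc43a3 lies close to P2rx3 in the genome, 4 genes away in the RefSeq order of assembly GRCm38.p6. Its log2 signals were 7.995, 8.36 and 6.87 in wild-type CD4+CD8- cells, 9.37 and 9.70 in wild-type CD4-CD8+ cells, 9.74, 9.89 and 9.59 in Thpok-deficient CD4+CD8- cells, and 9.36, 10.11 and 9.98 in Thpok-deficient CD4+CD8+ cells. In that order its differences from wild-type CD4+CD8- cells were 1.79 ± 0.39, 1.999 ± 0.35 and 2.08 ± 0.35 (SE), given with no test because it was picked for following P2rx3. On the 9 arrays of full range it was the gene most like P2rx3, with an r of 0.970. Its place near P2rx3 was noticed after its values were seen. Of the 3 genes between them, Prg2 and Prg3, for eosinophil granule proteins, were measured and the lncRNA gene Gm39868 was not analysed here. Their r with P2rx3 was -0.20 for Prg2 and 0.05 for Prg3 over 11 arrays, and 0.28 and 0.72 over the 9 arrays of full range, and neither passed in any comparison. Prg3 is the direct neighbour on that side. Ssrp1, the direct neighbour on the other side, was not analysed here.

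Sensory neurons are the cells P2rx3 is known from, and 4 of 6 of their marker genes were measured. Their mean log2 signal per array was 3.97 to 4.69 (CD4+CD8-) and 4.02 to 4.04 (CD4-CD8+) among wild-type samples, and 3.92 to 4.04 (CD4+CD8-) and 4.07 to 4.66 (CD4+CD8+) among Thpok-deficient samples. Trpv1, the capsaicin receptor, was between 3.98 and 4.37 on the 9 arrays of full range. All 4 markers were highest on the 2 narrow arrays, as were 63.0% of the olfactory-type genes.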

How the data were processed

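The deposited table holds 1 value per probe set and sample, in log2 units, made by the authors with Partek and RMA on mm9, per the submitters' processing notes, with no versions given. Per the design text the array was the Mouse Exon 1.0 ST of Affymetrix while the labels' protocol gives a 3' IVT kit, a mismatch not settled here. Columns were matched to samples by name and groups taken from the labels. Of the probe sets, 14970 had 1 symbol, 1019 several and 684 none. Symbols were updated by Entrez ID (14920 matched), and the probe set of highest mean stood for each of 134 genes with several. R 4.3.3 and limma 3.58.1 (lmFit, eBayes) fitted 1 coefficient per group to all 11 arrays (7 residual and 3.80 prior degrees of freedom), tested on simulated data first. The number of arrays limits the precision. The members and the pathway, marker and named-gene lists were chosen with earlier results of these data known. Named genes were the members, pathway genes that passed, up to 3 more per list by absolute difference, the direct neighbours of P2rx3, the 5 highest and 5 lowest by Pearson r, marker genes and label checks. Exceptions chosen after their values were seen are Slc43a3 as a near neighbour, Prg2, Stim1, Lrrc8d, Zbtb32 and the lists of genes sharing the narrow-array pattern.

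Same-numbered samples deviated together for all 3 numbers only in Thpok-deficient CD4+CD8+ against wild-type CD4+CD8- cells (r = 0.65, 0.43 and 0.72), where both replicates 3 are narrow arrays. The pairing is read from the data, not from the labels. Alternatives were a further quantile normalization, median centring, a filter at a mean signal of 5, array weights, the 9 full-range arrays, a replicate block and leaving out each array. Coordinates are not given because the reference tables used here follow GRCm38.p6.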

Additional observations from a re-analysis of the deposited data

How the results depend on the processing

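The comparisons run in the order wild-type CD4-CD8+, Thpok-deficient CD4+CD8- and CD4+CD8+ against wild-type CD4+CD8- cells, then Thpok-deficient CD4+CD8+ against CD4+CD8-, and CD4+CD8- and CD4+CD8+ against wild-type CD4-CD8+ cells. Probe sets called numbered 89, 14, 34, 0, 3 and 1. They numbered 240, 17, 146, 0, 3 and 2 after quantile normalization, 52, 8, 11, 0, 3 and 1 after median centring, 133, 39, 44, 0, 3 and 2 after the signal filter, 268, 39, 28, 0, 3 and 0 on 9 arrays, and 116, 264, 86, 1, 5 and 1 with the replicate block. Leaving out 1 array gave 8 to 129, 2 to 35, 4 to 70, 0 to 1, 1 to 4 and 0 to 2. Higher and lower calls in the first 3 comparisons were 50 and 39, 11 and 3, and 23 and 11, against 93 and 147, 9 and 8, and 60 and 86 after quantile normalization, which moved the median of all differences from -0.14 and -0.15 to -0.03 and -0.03 in the first 2. After centring the split was 33 and 19, 6 and 2, and 9 and 2.

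The planned array weights, limma's default estimate, did not converge and gave wild-type CD4+CD8- replicate 1 a weight of 51.9 against 0.28 and 0.06 for the others of its group, so those fits rest on nearly 1 array there. They called 1989, 7073, 8713, 1479, 12 and 4 probe sets and 10, 31, 45, 10, 0 and 0 pathway genes, and turned Dpp4 (-0.24, Thpok-deficient CD4+CD8-), Entpd1 (-0.57), Entpd4 (-0.52) and Entpd5 (0.21, all CD4+CD8+) to a called value of the other sign. P2rx4 was called there too (-0.47 and -0.56 in the Thpok-deficient groups), and under none of the other 17 alternatives did P2rx4, P2rx7, Entpd1 or Nt5e pass in any comparison. Gene-by-gene weights, added after those calls had been seen, gave 435, 2078, 1987, 2, 4 and 1 probe sets and 3, 12, 14, 0, 0 and 0 pathway genes, with weights of 4.27, 0.69 and 0.09 in that group.

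Pathway genes other than P2rx3 called in the first 3 comparisons numbered 2, 0 and 1. They numbered 2, 1 and 2 after quantile normalization, 2, 0 and 0 after centring, 1, 1 and 1 after the filter, which left 10340 probe sets and removed Gja1, 3, 2 and 1 on 9 arrays, and 2, 2 and 1 with the replicate block. Leaving out 1 array gave 0 to 2, 0 to 1 and 0 to 1. With the block, Gja1 (adjusted p = 0.0270) and Pde2a (0.0236) were called in Thpok-deficient CD4+CD8- cells, where the numbers do not pair the samples, and the block changed no other call among the 216 results of members and pathway genes recomputed. P2rx3 differences without 1 array ran from 2.51 to 4.25, 3.31 to 4.26, 3.16 to 4.11, -0.39 to 0.04, -0.52 to 1.23 and -0.67 to 1.07. Of 3852 recomputed gene values, 233 had the other sign without being called either way. The causes were not tested. Groups of 2 or 3 arrays are too small for the outlier check.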
